A study of Mus musculus with 12 samples.

Results

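The proteasome subunits described here are the protein-coding mouse genes whose symbol is Psma, Psmb, Psmc or Psmd followed by a number. GENCODE M21, an annotation of the mouse genome build GRCm38, holds 39 such genes, namely 8 Psma, 11 Psmb, 6 Psmc and 14 Psmd genes. The table of the AAV experiment listed 37 of them among 13178 genes, and the table of the ribose experiment listed all 39 among 21650 genes. The rule that picks the members uses gene names and no measured value.

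All 12 libraries came from dorsal root ganglion neurons of the L4-6 levels, the sensory neurons that feed the sciatic nerve, taken from C57BL/6J mice of 8 weeks at 72 h after spinal cord injury (SCI). The AAV experiment used an adeno-associated virus, delivered by way of the sciatic nerve 4 weeks before, that carried either transketolase (AAV-TKT), an enzyme of the pentose phosphate pathway, or green fluorescent protein (AAV-GFP). In the ribose experiment, mice received 10% ribose, a pentose sugar (Ribose), or its vehicle (Vehicle). Each of the 4 groups held 3 libraries, all from injured animals. The labels name neither the promoter of the virus nor whether the libraries of a group came from separate animals, so p-values measure the spread between these libraries, which may be technical.

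The proteasome is the barrel-shaped protease that degrades proteins marked with ubiquitin. Psma genes encode the alpha subunits of its outer rings, which gate the entrance. Psmb genes encode the beta subunits of its inner rings, where Psmb5, Psmb6 and Psmb7 carry the active sites and Psmb8, Psmb9 and Psmb10 take their places in the immunoproteasome that interferon induces. Psmc genes encode the ATPases that unfold substrates, and Psmd genes encode the other subunits of the regulatory particle, which bind ubiquitin chains and remove them. Psmd5, Psmd9 and Psmd10 encode chaperones that help to build the ATPase ring and leave the finished particle. In neurons the proteasome works in the cell body, in axons and at synapses.

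When proteasome activity falls, the transcription factor Nfe2l1 raises the transcription of subunit genes through antioxidant response elements. The core of that element, TGACNNNGC on either strand, was searched in RefSeq promoter windows reaching from 250 bases before to 50 bases after each gene start on GRCm38.p6. The subunits had 34 windows for 32 genes, and 5 of these windows (14.7%) held the core, against 12.4% of 32851 mouse windows of the same length. Those 5 belonged to Psmb5, Psmb6, Psmc6, Psmd9 and Psmd12. Psmb7, the other constitutive active-site gene, was not among them. The stretches before the starts of Psmb5 and Psmb6 are printed because both genes encode active-site subunits, with the core in capitals. That of Psmb5 lies on the minus strand at chr14:54618023-54618095, and that of Psmb6 on the plus strand at chr11:70525257-70525356.
Psmb5: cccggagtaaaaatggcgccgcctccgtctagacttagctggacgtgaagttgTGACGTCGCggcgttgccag
Psmb6: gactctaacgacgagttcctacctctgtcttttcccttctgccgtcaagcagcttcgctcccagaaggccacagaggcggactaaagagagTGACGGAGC
The printed stretch of Psmb5 runs from 100 to 28 bases before the RefSeq start, and that of Psmb6 from 100 to 1. The bases of Psmb5 nearer to that start lie in an annotated GENCODE exon and are left out. Both genes carry the core on the coding strand, 47 to 39 bases before the RefSeq start in Psmb5 and 9 to 1 bases before it in Psmb6. Of the letters that interferon signalling reads, the STAT dimer site TTCNNNGAA occurred in the windows of Psmb8 and Psmd2 (5.88% of subunit windows, against 8.30% of all). The interferon response element occurred in those of Psmb3, Psmd4 and Psmd9 (8.82%, against 3.44% of all). A match describes the letters of these windows and is not a measured binding site.

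The files give expression as FPKM, that is, fragments per kilobase of transcript scaled to a common library size, so levels of different genes are comparable per length. Column totals ran between 413600 and 456100 FPKM in the AAV table and between 510600 and 551400 FPKM in the ribose table. Read depth is unknown, and no counting interval can be given. The targeted gene fitted the labels in the AAV experiment: Tkt stood at 223, 259 and 262 FPKM in the AAV-TKT libraries, against 106.5, 101.7 and 98.1 FPKM in the AAV-GFP libraries. All 10 neuron markers checked were present in both tables, beside transcripts of glia, fibroblasts and blood cells. AAV-TKT replicate 2 and Vehicle replicate 3 stood apart from their groups for the subunits, and Ribose replicate 2 for non-neuronal markers, so results are also given without each of them.

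Most subunit genes were strongly and evenly expressed in these ganglia. In the AAV table, the mean level over the 6 libraries had a median of 66.7 FPKM across the 37 subunits, and in the ribose table the median over the 37 tested subunits was 68.8 FPKM. Within each ring the genes lay close together. The 7 alpha genes of the AAV table ran between 44.1 FPKM for Psma2 and 103.8 FPKM for Psma3, a ratio of 2.36. The 7 constitutive beta genes ran between 64.6 FPKM for Psmb2 and 149 FPKM for Psmb4, a ratio of 2.31. The 6 ATPase genes ran between 65.9 FPKM for Psmc6 and 125 FPKM for Psmc3, a ratio of 1.90.

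Outside the ATPase ring, the regulatory particle was less even. Among its 11 lid and base genes, the mean level in the AAV table was lowest at 33.0 FPKM for Psmd7, a lid subunit beside the deubiquitinase, and highest at 149 FPKM for Psmd2, a large base subunit that docks ubiquitin receptors. The chaperones were among the lowest, at 9.13 FPKM for Psmd10, 9.40 FPKM for Psmd9 and 24.3 FPKM for Psmd5. The immunoproteasome genes were lower than their constitutive partners, with Psmb9 the lowest of all 37 at 1.94 FPKM. The order was much the same in the ribose table, where Psmb4 again led at 197 FPKM, Psmd7 was again the lowest lid and base gene at 36.7 FPKM and Psmb9 was again the lowest of the 37 at 1.44 FPKM. Ranked by level, the AAV-GFP and Vehicle means of the 37 subunits had a Spearman rho of 0.984, given as a description across genes that share gene length and processing. The highest places were not resolved: Psmb4 at 162 ± 11.0 FPKM and Psmd2 at 159.8 ± 7.66 FPKM in AAV-TKT libraries lay within 1 SD of each other, as did Psmb4 at 136 ± 13.3 FPKM and Psmd2 at 137 ± 5.30 FPKM in AAV-GFP libraries (SD, n = 3 each).

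**Figure D1:**
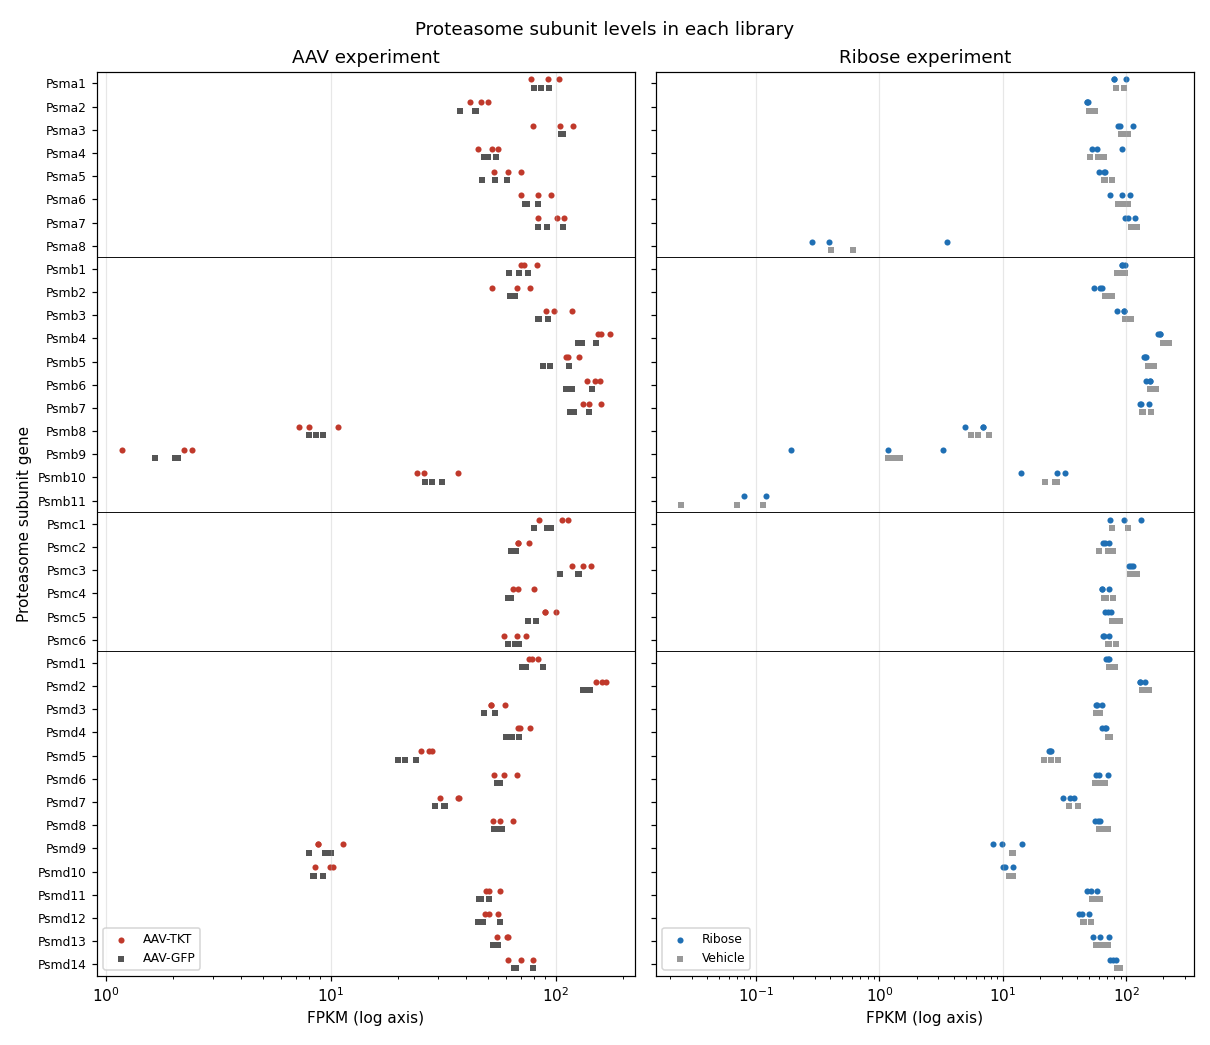
FPKM of each of the 39 proteasome subunit genes in each library, on a log axis, with AAV-TKT above AAV-GFP on the left and Ribose above Vehicle on the right; values of 0 are not drawn (Psma8 in a Vehicle library, Psmb11 in a Ribose library). Most genes lie between 30 and 200 FPKM, and Psmb8, Psmb9, Psmb10, Psma8, Psmb11 and the chaperones Psmd5, Psmd9 and Psmd10 lie below them.

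The first comparison asked how subunit genes stood when transketolase was supplied to injured sensory neurons. Proteasome genes were slightly higher in AAV-TKT than in AAV-GFP libraries as a group, and no single gene passed the test. The median difference of the 37 subunits on the log2(FPKM + 1) scale was 0.12, a ratio of 1.09, against a median of 0.01 over all 13178 genes. It was positive for 32 of the 37 subunits, with a range of -0.10 to 0.30, against 53.7% of all genes. In limma over all genes, with Benjamini-Hochberg adjustment at 0.05, 0 of 37 subunits passed, and 2 of 13178 genes did (0.0152%). The lowest adjusted p of a subunit in limma was 0.378.

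At an unadjusted p under 0.05 in limma, 5 subunits were higher in AAV-TKT libraries and 0 were lower, against 6.23% and 4.36% of all genes. In 6 subunits the lowest AAV-TKT value exceeded the highest AAV-GFP value, against 11.3% of all genes, and in 0 subunits did all AAV-TKT values lie below, against 7.2% of all genes. These 6 were Psmb4, Psmc2, Psmc4, Psmc5, Psmd2 and Psmd5. The share of separated subunits is thus not far from the background.

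By class, the median log2(FPKM + 1) difference between AAV-TKT and AAV-GFP was 0.07 over 7 alpha genes (6 positive), 0.16 over 10 beta genes (7 positive), 0.15 over 6 ATPase genes (6 positive) and 0.12 over 14 non-ATPase genes (13 positive). The alpha median was -0.00 with equal FPKM totals, -0.01 under quantile normalization and -0.02 without AAV-TKT replicate 2. The ATPase ring held 3 of the 6 separated genes, and the alpha ring held 0.

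Psmd5, the chaperone gene on chr2:34849734-34874968, had the smallest p of the subunits. It stood at 27.3, 25.1 and 28.2 FPKM in AAV-TKT libraries, against 19.9, 21.4 and 23.9 FPKM in AAV-GFP libraries. The groups did not overlap, and the log2(FPKM + 1) difference was 0.30 (SE 0.0871, limma adjusted p = 0.378). Psmd2 on chr16:20651652-20663414 stood at 167, 161 and 152 FPKM in AAV-TKT libraries, against 138, 142 and 132 FPKM in AAV-GFP libraries. Its groups did not overlap either, with a log2 difference of 0.22 (SE 0.0693, limma adjusted p = 0.402).

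Psmc5, an ATPase gene on chr11:106256154-106263120, stood at 89.9, 100.7 and 90.1 FPKM in AAV-TKT libraries, against 82.1, 82.1 and 75.7 FPKM in AAV-GFP libraries. All AAV-TKT values lay above all AAV-GFP values, with a log2 difference of 0.22 (SE 0.0740, limma adjusted p = 0.412). Psmb4, a beta subunit without an active site on chr3:94884093-94886961, stood at 154, 175 and 158.5 FPKM in AAV-TKT libraries, against 151, 126 and 131 FPKM in AAV-GFP libraries. The groups touched closely without overlap, with a log2 difference of 0.25 (SE 0.0918, limma adjusted p = 0.425).

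The genes of the 3 constitutive active sites were each higher on average in AAV-TKT libraries, with overlap. Psmb5, the chymotrypsin-like site, stood at 111, 127 and 114 FPKM in AAV-TKT libraries, against 115, 88.1 and 94.4 FPKM in AAV-GFP libraries. Psmb6, the caspase-like site, stood at 139, 158 and 149.5 FPKM in AAV-TKT libraries, against 144.5, 111 and 118 FPKM in AAV-GFP libraries. Psmb7, the trypsin-like site, stood at 133, 159 and 141 FPKM in AAV-TKT libraries, against 141, 120.3 and 115.5 FPKM in AAV-GFP libraries. In all 3 genes the first AAV-GFP library was higher than the lowest AAV-TKT library, and the log2 differences were 0.24, 0.26 and 0.20 for Psmb5, Psmb6 and Psmb7 (limma adjusted p = 0.482, 0.469 and 0.516).

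The subunits with a negative difference were Psma3, Psmb8, Psmb9, Psmb10 and Psmd14, and all had overlapping groups. Psma3, an alpha subunit, stood at 79.7, 119 and 104.3 FPKM in AAV-TKT libraries, against 108, 106 and 106 FPKM in AAV-GFP libraries, with a log2 difference of -0.10 (SE 0.137, limma adjusted p = 0.809). The first AAV-TKT library was the lowest of the 6. Psma3 is uncertain for another reason: the processed pseudogene Gm13835 shares 100% of its 31-base words with Psma3 transcripts. Gm13835 was listed at 6.56, 0 and 10.6 FPKM in AAV-TKT libraries, against 0 FPKM in all 3 AAV-GFP libraries, so reads may have been split between the pair. In the ribose experiment Gm13835 stood at 29.6, 12.6 and 9.01 FPKM in Ribose libraries, against 0, 29.2 and 27.5 FPKM in Vehicle libraries. Psma3 means there were 95.9 and 95.8 FPKM, and the same uncertainty holds for them.

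**Figure D2:**
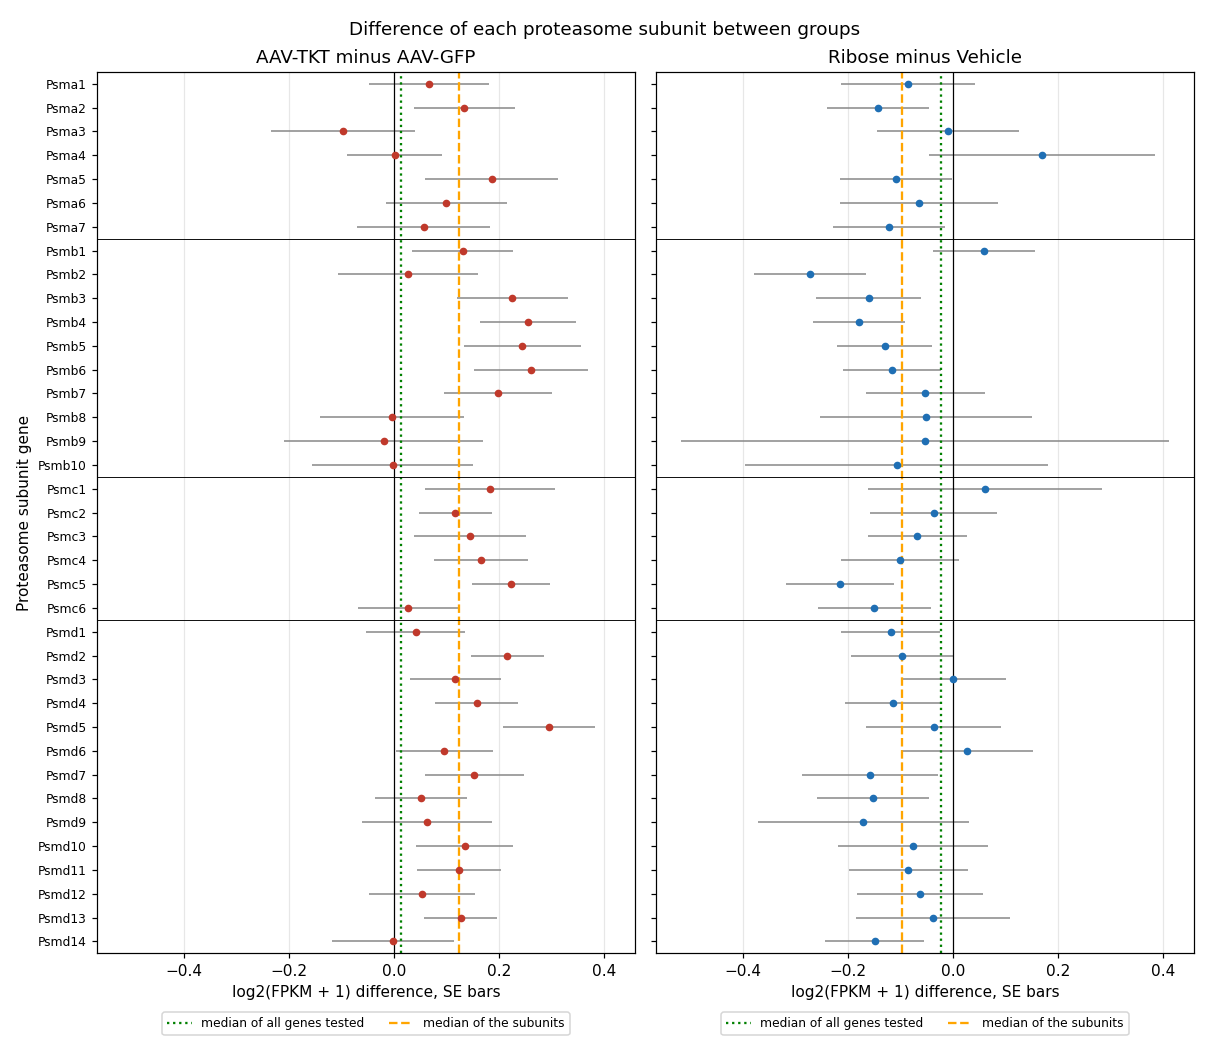
Difference of each tested subunit in log2(FPKM + 1), AAV-TKT minus AAV-GFP on the left and Ribose minus Vehicle on the right, with bars of 1 SE from limma; dotted and dashed lines mark the medians of all genes and of the 37 subunits. Most points lie right of 0 on the left panel (32 of 37) and left of 0 on the right panel (32 of 37), and most bars reach close to 0 or beyond it.

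The median level of the subunits varied more between the AAV-TKT libraries than it differed between the groups. Each subunit was set against its own mean over the 6 libraries on the log2(FPKM + 1) scale, and the median of these deviations was taken per library. It was -0.06, 0.20 and 0.03 in AAV-TKT libraries 1 to 3, against -0.02, -0.06 and -0.11 in AAV-GFP libraries 1 to 3. AAV-TKT replicate 1 thus lay among the AAV-GFP libraries, and AAV-TKT replicate 2 stood above all others. The classes did not always shift alike. In AAV-GFP replicate 1 the alpha and beta medians were 0.06 and 0.07, and the ATPase and non-ATPase medians were -0.06 and -0.08. In AAV-TKT replicate 1 the alpha median was -0.18 and the non-ATPase median 0.01. AAV-TKT replicate 2 was the highest of 6 libraries for 29 of the 37 subunits, against 21.4% of all genes. It lay above all 3 AAV-GFP libraries in 33 of the 37 subunits, against 34.0% of all genes. AAV-TKT replicate 3 did so in 17 subunits (27.2% of all genes) and AAV-TKT replicate 1 in 11 (31.45% of all genes).

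Without AAV-TKT replicate 2 the median difference of the subunits was 0.0734, with 24 of 37 positive. With each library scaled to the same FPKM total it was 0.0552, with 23 of 37 positive, while the median of all genes was then -0.0478. Under quantile normalization it was 0.0727, with 26 of 37 positive. The summed level of the 37 subunits was 2718 ± 237 FPKM in AAV-TKT libraries, against 2469 ± 115 FPKM in AAV-GFP libraries (SD, n = 3 each). As a share of the column total it was 0.613% ± 0.0380 in AAV-TKT libraries, against 0.585% ± 0.0139 in AAV-GFP libraries (SD, n = 3 each). The single gene Rn7s2 held 6.32% (AAV-GFP replicate 2) to 12.6% (AAV-GFP replicate 1) of these totals, and it also counts in the scaling to equal FPKM totals. Without Rn7s2 the share was 0.689% ± 0.0445 in AAV-TKT libraries, against 0.650% ± 0.0211 in AAV-GFP libraries (SD, n = 3 each).

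**Figure D3:**
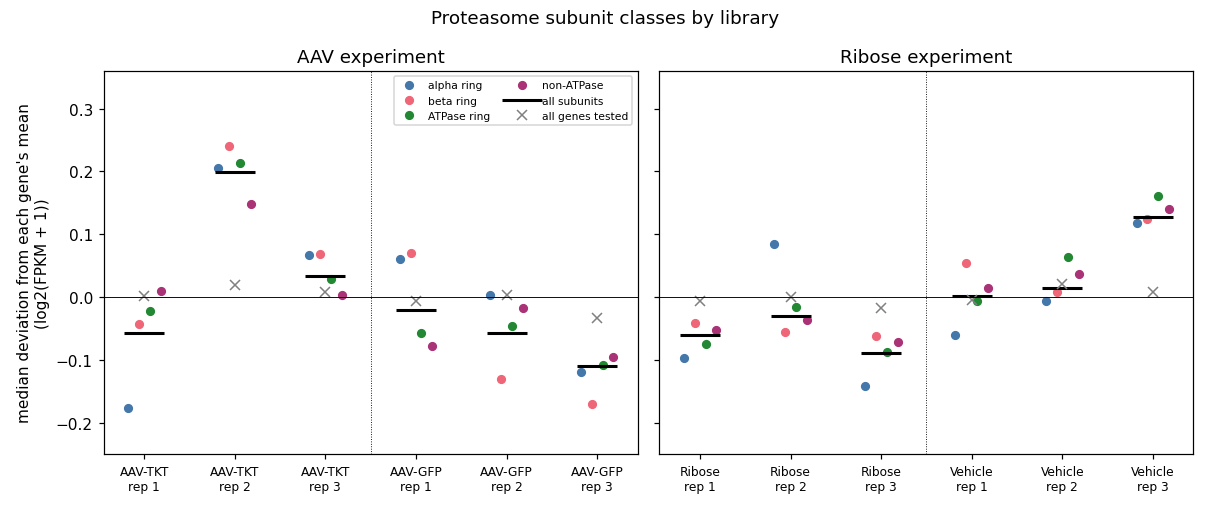
Median deviation of each subunit class (points), of all subunits (bars) and of all genes tested (crosses) from the gene's own mean over 6 libraries, in log2(FPKM + 1), for each library of the AAV experiment (left) and the ribose experiment (right). AAV-TKT replicate 2 lies at 0.20 and Vehicle replicate 3 at 0.13, above the other libraries of their experiments.

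Marker transcripts of several cell types stood at different levels in the groups of the AAV experiment. None of these markers passed the threshold in limma. The 10 neuron markers summed to 8929 to 9920 FPKM in AAV-TKT libraries, against 7387 to 8408 FPKM in AAV-GFP libraries, with 7 of 10 separated upwards. The 11 neutrophil markers summed to 20.2 to 32.8 FPKM in AAV-TKT libraries, against 98.3 to 266 FPKM in AAV-GFP libraries, with 11 of 11 separated downwards. The 8 listed macrophage markers of 12 summed to 14.3 to 20.2 FPKM in AAV-TKT libraries, against 39.6 to 53.2 FPKM in AAV-GFP libraries. For the 6 listed red cell markers of 8 the sums were 71.9 to 94.4 FPKM in AAV-TKT libraries, against 113 to 476 FPKM in AAV-GFP libraries, and for the 5 listed Schwann cell markers of 6 they were 298 to 328 FPKM, against 348 to 381 FPKM. The 6 satellite glia markers overlapped at 681 to 1158 FPKM in AAV-TKT libraries, against 1004 to 1306 FPKM in AAV-GFP libraries, and the 5 listed fibroblast markers of 6 overlapped at 23.7 to 28.8 FPKM, against 26.1 to 55.0 FPKM. None of 8 lymphocyte or 6 endothelial markers was listed in the AAV table. The part of the cell mix in the subunit differences was not tested, and fewer cells of a type and less RNA per cell cannot be told apart in these bulk samples.

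The second comparison asked how the same genes stood when mice were given ribose. Proteasome genes were slightly lower in Ribose than in Vehicle libraries as a group, and again no single gene passed the test. The median log2(FPKM + 1) difference of the 37 tested subunits was -0.10, a ratio of 0.934, against a median of -0.02 over all 13804 genes tested. It was positive for 5 of the 37, with a range of -0.27 to 0.17, against 44.8% of all genes. In limma, 0 of 37 subunits passed, and 1 of 13804 genes did (0.00724%), with adjusted p values of 1.00 for every subunit after rounding.

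At an unadjusted p under 0.05 in limma, 1 subunit was lower in Ribose libraries and 0 were higher, against 1.99% and 2.8% of all genes. In 9 subunits every Ribose library lay below every Vehicle library, against 5.35% of all genes, and in 0 subunits did every Ribose library lie above, against 4.28% of all genes. The 9 were Psma2, Psmb2, Psmb3, Psmb4, Psmb5, Psmc5, Psmd1, Psmd4 and Psmd14. Psmd4 encodes a ubiquitin receptor and Psmd14 the deubiquitinase of the lid. By class, the median difference was -0.09 over 7 alpha genes, -0.11 over 10 beta genes, -0.08 over 6 ATPase genes and -0.09 over 14 non-ATPase genes, and the beta ring held 4 of the 9 separated genes.

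Psmb2, a beta subunit without an active site on chr4:126677630-126709714, stood at 60.7, 63.2 and 54.4 FPKM in Ribose libraries, against 71.2, 67.7 and 77.0 FPKM in Vehicle libraries. The groups did not overlap, with a log2 difference of -0.27 (SE 0.108, unadjusted p = 0.0376 and adjusted p = 1.00 in limma). Psmc5 stood at 67.7, 75.1 and 70.8 FPKM in Ribose libraries, against 76.2, 84.1 and 88.5 FPKM in Vehicle libraries. Its groups lay close without overlap, with a log2 difference of -0.22 (SE 0.103).

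Psmb4 stood at 181, 188 and 186 FPKM in Ribose libraries, against 222, 199.7 and 207 FPKM in Vehicle libraries, with a log2 difference of -0.18 (SE 0.0875). Psmb3, another beta subunit without an active site, stood at 95.9, 95.2 and 84.7 FPKM in Ribose libraries, against 103.3, 97.1 and 108 FPKM in Vehicle libraries, with a log2 difference of -0.16. In both genes the groups were separate. Psmb5 stood at 142, 139 and 144 FPKM in Ribose libraries, against 167, 149.6 and 149.6 FPKM in Vehicle libraries, and the log2 difference was -0.13.

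Psmb6 and Psmb7 overlapped between the groups. Psmb6 stood at 156, 157 and 143 FPKM in Ribose libraries, against 155, 166 and 173 FPKM in Vehicle libraries. Psmb7 stood at 129, 133 and 152.5 FPKM in Ribose libraries, against 136, 134 and 159 FPKM in Vehicle libraries. The log2 differences of Psmb6 and Psmb7 were -0.12 and -0.05.

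Of the 5 subunits with a positive difference, Psma4, Psmb1, Psmc1 and Psmd6 had the smallest p, and all 4 overlapped between the groups. Psma4, an alpha subunit, stood at 57.7, 53.2 and 91.8 FPKM in Ribose libraries, against 58.9, 66.0 and 50.8 FPKM in Vehicle libraries, with a log2 difference of 0.17 (SE 0.215). Its mean rested on the third Ribose library. Psmc1, an ATPase, stood at 131, 95.2 and 73.8 FPKM in Ribose libraries, against 75.9, 103.1 and 103.6 FPKM in Vehicle libraries, with a log2 difference of 0.06 (SE 0.223). Psmb1, a beta subunit without an active site, stood at 92.2, 97.7 and 91.8 FPKM in Ribose libraries, against 84.4, 89.4 and 97.0 FPKM in Vehicle libraries, and Psmd6, a lid subunit, at 71.2, 56.8 and 60.6 FPKM, against 66.9, 55.9 and 61.9 FPKM. The log2 differences of Psmb1 and Psmd6 were 0.06 and 0.03.

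Here too 1 library weighed on the result. The median deviation of the subunits was -0.06, -0.03 and -0.09 in Ribose libraries 1 to 3, against 0.00, 0.01 and 0.13 in Vehicle libraries 1 to 3. The groups did not overlap, but Vehicle replicate 3 stood apart and was the highest of 6 libraries for 17 of the 37 subunits, against 17.9% of all genes. Without Vehicle replicate 3 the median difference of the subunits was -0.0488, with 9 of 37 positive. Under quantile normalization it was -0.0486, with 11 of 37 positive.

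The summed level of the subunits was 2709 ± 70.9 FPKM in Ribose libraries, against 2879 ± 124 FPKM in Vehicle libraries (SD, n = 3 each). As a share of the column total it was 0.5098% ± 0.0104 in Ribose libraries, against 0.536% ± 0.0469 in Vehicle libraries (SD, n = 3 each). The single gene Rn7s2 held 18.7% (Vehicle replicate 3) to 26.65% (Vehicle replicate 1) of these totals. Without Rn7s2 the share was 0.671% ± 0.00187 in Ribose libraries, against 0.692% ± 0.0333 in Vehicle libraries (SD, n = 3 each). Genes listed at 0 made up 11.5% to 14.5% of the table in Ribose libraries, against 5.76% to 11.0% in Vehicle libraries. The 10 neuron markers summed to 7545 to 8013 FPKM in Ribose libraries, against 7253 to 9143 FPKM in Vehicle libraries, where replicate 3 held the highest sum. The 6 Schwann cell markers summed to 382 to 397 FPKM in Ribose libraries, against 430 to 487 FPKM in Vehicle libraries, and the sums of the 6 satellite glia markers overlapped at 291 to 995 FPKM and 673 to 1605 FPKM. Neutrophil and macrophage marker sums overlapped, at 13.7 to 120.5 FPKM and 6.02 to 39.1 FPKM in Ribose libraries, against 29.6 to 172 FPKM and 16.7 to 39.0 FPKM in Vehicle libraries. Red cell and fibroblast marker sums overlapped too, at 14.4 to 227 FPKM and 16.02 to 51.0 FPKM in Ribose libraries, against 73.8 to 211 FPKM and 31.6 to 32.6 FPKM in Vehicle libraries. Ribose replicate 2 held the lowest neutrophil, macrophage, red cell, satellite glia and fibroblast sums of the 6 libraries, and without it the median difference of the subunits was -0.129. The macrophage markers Cd68, Csf1r, Aif1, Fcer1g, C1qa and Ptprc were each listed at 0 in at least 1 library of the ribose experiment. The part of these shifts in the subunit differences was not tested.

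Set side by side, 27 of the 37 subunits were positive between AAV-TKT and AAV-GFP and negative between Ribose and Vehicle, 5 were positive in both, 5 were negative in both, and 0 had the opposite combination. The experiments share no library, and the difference between them was not tested. Psmc5 and Psmb4 were separated in both experiments, in opposite directions, with log2 differences of 0.22 and 0.25 between AAV-TKT and AAV-GFP and of -0.22 and -0.18 between Ribose and Vehicle. Psmd5 and Psmd2, at 0.30 and 0.22 between AAV-TKT and AAV-GFP, stood at -0.04 and -0.10 between Ribose and Vehicle, where their groups overlapped. Psmb2, at -0.27 between Ribose and Vehicle, stood at 0.03 between AAV-TKT and AAV-GFP.

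The immunoproteasome genes were low in all groups, and their differences in the AAV experiment were near 0, while those of the 7 constitutive beta genes ran between 0.03 and 0.26 on the log2(FPKM + 1) scale. Psmb8 stood at 7.27, 10.8 and 8.04 FPKM in AAV-TKT libraries, against 8.02, 8.62 and 9.23 FPKM in AAV-GFP libraries, a log2 difference of -0.00 (SE 0.138, limma adjusted p = 0.994). Psmb9 stood at 1.18, 2.22 and 2.42 FPKM in AAV-TKT libraries, against 2.10, 2.04 and 1.65 FPKM in AAV-GFP libraries, a log2 difference of -0.02 (SE 0.190, limma adjusted p = 0.980). Psmb10 stood at 26.01, 36.8 and 24.2 FPKM in AAV-TKT libraries, against 31.4, 26.4 and 28.1 FPKM in AAV-GFP libraries, a log2 difference of -0.00 (SE 0.154, limma adjusted p = 0.997). In all 3 genes the AAV-TKT values spanned the AAV-GFP values.

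As a percentage of the constitutive partner's FPKM, Psmb8 over Psmb5 was 7.38% ± 1.01 in AAV-TKT libraries, against 8.85% ± 1.62 in AAV-GFP libraries (SD, n = 3 each). Psmb9 over Psmb6 was 1.29% ± 0.395 in AAV-TKT libraries, against 1.56% ± 0.242 in AAV-GFP libraries (SD, n = 3 each). Psmb10 over Psmb7 was the highest of these ratios, at 19.99% ± 3.02 in AAV-TKT libraries, against 22.9% ± 1.32 in AAV-GFP libraries (SD, n = 3 each). All 3 ratios overlapped between the groups.

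Ribose and Vehicle overlapped as well. Psmb8 stood at 6.86, 4.95 and 6.92 FPKM in Ribose libraries, against 7.65, 6.33 and 5.51 FPKM in Vehicle libraries. Psmb9 stood at 3.29, 1.17 and 0.193 FPKM in Ribose libraries, against 1.31, 1.18 and 1.48 FPKM in Vehicle libraries. Psmb10 stood at 14.01, 32.1 and 27.6 FPKM in Ribose libraries, against 21.8, 27.4 and 26.4 FPKM in Vehicle libraries. The Ribose values of Psmb9 and Psmb10 were more scattered than the Vehicle values, on both sides of them. The ratio of Psmb8 over Psmb5 was 4.40% ± 0.728 in Ribose libraries, against 4.16% ± 0.452 in Vehicle libraries (SD, n = 3 each). That of Psmb9 over Psmb6 was 0.999% ± 1.01 in Ribose libraries, against 0.801% ± 0.0779 in Vehicle libraries, and that of Psmb10 over Psmb7 was 17.7% ± 6.65, against 17.6% ± 2.38 (SD, n = 3 each).

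**Figure D4:**
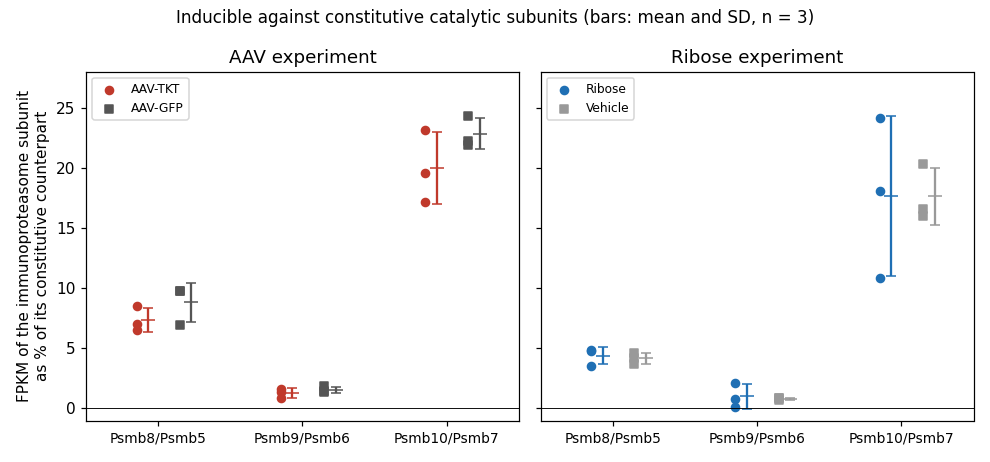
FPKM of each immunoproteasome subunit as a percentage of the FPKM of its constitutive counterpart in each library, with the mean and SD of 3 libraries beside the points, AAV-TKT left of AAV-GFP and Ribose left of Vehicle. Psmb9 over Psmb6 is the lowest ratio and Psmb10 over Psmb7 the highest in every group, and the groups of each experiment overlap in all 3 ratios.

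Both tissue-restricted subunits were near 0. Psma8, an alpha subunit known from testis, stood at 0.284, 3.56 and 0.389 FPKM in Ribose libraries, against 0, 0.615 and 0.408 FPKM in Vehicle libraries, and its mean of 0.876 FPKM kept it out of the test. Psmb11, a beta subunit known from thymus, stood at 0.121, 0 and 0.0802 FPKM in Ribose libraries, against 0.0703, 0.0245 and 0.114 FPKM in Vehicle libraries. A single Ribose library carried the level of Psma8.

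Other subunits also have near copies or neighbours that could take or lend reads. In all, 16 pseudogenes have at least 20% of their 31-base words in common with 1 of 9 subunits, and of these 1 pseudogene was listed in the AAV table and 7 in the ribose table. Apart from Gm13835, the highest of these stood at 2.40 FPKM, against subunit levels many times higher. Exons of Psmb9 overlap those of the peptide transporter gene Tap1 over 212 bases on the opposite strand, and those of Psmb8 overlap the antisense gene Gm20496 over 498 bases. Psmd9 overlaps the non-coding gene Gm26745 over 1849 bases on the opposite strand. Psmb7 overlaps Nek6 over 405 bases on the opposite strand, and Psmd1 overlaps the protein-coding gene Gm21972 over 301 bases on the same strand. Psmc3, Psma4, Psma5, Psmb5, Psmd3 and Psmd13 also share exon bases with other genes. Whether counting used strand is not given in the sources used here, so values of these genes may hold reads of the partner.

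The genes that build, regulate and feed the proteasome gave 0 calls in limma in either experiment, over all 6 lists examined. Of 5 listed assembly chaperones, 3 were higher on average in AAV-TKT libraries and the median log2 difference was 0.06. Pomp, which guides maturation of the core, stood at 56.2 ± 5.90 FPKM in AAV-TKT libraries, against 51.0 ± 2.49 FPKM in AAV-GFP libraries (SD, n = 3 each). Its groups were barely apart, with a lowest AAV-TKT value of 52.64 FPKM and a highest AAV-GFP value of 52.61 FPKM (limma adjusted p = 0.592). Psmg3 had a log2 difference of 0.19 between AAV-TKT and AAV-GFP. Between Ribose and Vehicle the chaperone median was -0.04, with Psmg1 at -0.21 and Psmg3 at 0.09.

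The 13 activators, inhibitor and bound factors had a median log2 difference of 0.01 between AAV-TKT and AAV-GFP and of -0.03 between Ribose and Vehicle. Sem1, a small lid subunit outside the Psmd names, stood at 24.3 ± 3.83 FPKM in AAV-TKT libraries, against 19.4 ± 3.69 FPKM in AAV-GFP libraries (SD, n = 3 each). Adrm1, a ubiquitin receptor of the base, had log2 differences of 0.16 and -0.12 in the AAV and ribose experiments. Its groups overlapped in the AAV experiment, and in the ribose experiment all Ribose libraries were lower than all Vehicle libraries. Uchl5, the deubiquitinase that binds Adrm1, stood at 14.7 ± 3.68 FPKM in Ribose libraries, against 20.5 ± 3.03 FPKM in Vehicle libraries (SD, n = 3 each). Its groups lay close without overlap, with a highest Ribose value of 18.3 FPKM and a lowest Vehicle value of 18.8 FPKM.

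The 15 genes of ubiquitin supply and delivery had medians of 0.09 between AAV-TKT and AAV-GFP, with 12 positive, and of -0.07 between Ribose and Vehicle, with 12 negative. Vcp, the ATPase that extracts ubiquitinated proteins, stood at 319 ± 23.2 FPKM in AAV-TKT libraries, against 278 ± 14.8 FPKM in AAV-GFP libraries (SD, n = 3 each, limma adjusted p = 0.472). Its groups were barely apart, with a lowest AAV-TKT value of 292.1 FPKM and a highest AAV-GFP value of 291.6 FPKM. Bag6, which carries misfolded proteins to the proteasome, had a log2 difference of 0.20 between AAV-TKT and AAV-GFP (limma adjusted p = 0.412). Ubqln4, a shuttle for ubiquitinated proteins, had a log2 difference of 0.28 between Ribose and Vehicle, the Ribose libraries all being higher.

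Nfe2l1 itself was abundant in every group. It stood at 236 ± 21.4 FPKM in AAV-TKT libraries, against 216 ± 26.4 FPKM in AAV-GFP libraries, and at 228 ± 3.20 FPKM in Ribose libraries, against 224 ± 29.4 FPKM in Vehicle libraries (SD, n = 3 each). The groups overlapped in both experiments, with log2 differences of 0.13 and 0.03. Nfe2l2, the related factor of the oxidative stress response, was lower on average in both, with log2 differences of -0.19 between AAV-TKT and AAV-GFP, where the groups were separate (limma adjusted p = 0.488), and of -0.31 between Ribose and Vehicle. Ddi2, the protease that activates Nfe2l1, had log2 differences of 0.09 and 0.14 in the AAV and ribose experiments.

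Most genes of antigen presentation and of the interferon response, the setting of the immunoproteasome, had negative differences in the AAV experiment, where 53.7% of all genes were positive. The neutrophil and macrophage marker sums given above were lower in the same AAV-TKT libraries, and their part in these differences was not tested. The 8 genes of peptide loading and class I presentation had a median log2 difference of -0.13 between AAV-TKT and AAV-GFP, with 7 negative. Tapbp, which helps to load class I molecules, was the exception at 49.1 ± 1.89 FPKM in AAV-TKT libraries, against 40.5 ± 1.57 FPKM in AAV-GFP libraries (SD, n = 3 each), a log2 difference of 0.27 with a limma adjusted p of 0.370. Erap1, which trims peptides, stood at 2.82 ± 0.456 FPKM in AAV-TKT libraries, against 4.28 ± 0.597 FPKM in AAV-GFP libraries (SD, n = 3 each), a log2 difference of -0.47. Of 13 interferon response genes 12 were negative, with a median of -0.16, Irf9 at -0.27 and Irf1 at -0.35. The groups overlapped in all 13, and 0 of them had an unadjusted p under 0.05 in limma. Between Ribose and Vehicle the median was -0.16 for class I genes, with B2m at -0.25 and Erap1 at 0.69 (SE 0.455). The Erap1 groups overlapped, at 7.37, 7.29 and 1.67 FPKM in Ribose libraries, against 2.16, 3.29 and 2.28 FPKM in Vehicle libraries. Over 12 tested interferon response genes the median between Ribose and Vehicle was -0.19, with Gbp2 at -0.58 and Irf9 at -0.32.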

How the data were processed

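Per the labels' protocols, polyadenylated RNA was made into directional libraries. The tools named are bcl2fastq 2.20, FastQC and Trim Galore, with the build GRCm38, per the submitters' processing notes; an aligner, a counter and a normalization are not given there. The authors deposited FPKM values in 1 table per experiment, and Vehicle columns are headed there by an abbreviation for control. The AAV table holds no gene whose mean is under 1 FPKM. Identifiers were matched to GENCODE M21 (13170 of 13178 and 21612 of 21650). Low values did not recover whole reads: at most 8.61% of their ratios fell on whole steps in a ribose library, and the AAV table has too few low values. Each table was fitted alone, as log2(FPKM + 1) and without genes whose mean was under 1 FPKM, with limma 3.58.1 in R 4.3.3 (trend prior, Benjamini-Hochberg over all genes, threshold 0.05), which was also tested on simulated data. This scale understates differences of low genes. No exact permutation test of 3 against 3 libraries can go below a p of 0.1. Libraries correlated at 0.972 to 0.985 (AAV experiment) and 0.924 to 0.966 (ribose experiment). Motifs were searched on both strands, and near copies were found by shared 31-base words. Values per library are given for the 4 subunits with the smallest p per direction and experiment, the immunoproteasome subunits with their partners, and Psma8 and Psmb11; from each pathway list the 2 genes with the smallest p per experiment are named, with Nfe2l1 always; 1 gene that this rule names is not reported here. Psmd14 in the AAV experiment and the lists of separated genes were named after their values were seen. The members and lists were chosen with earlier results of these data known. Alternatives were 2 other pseudocounts, 2 other filters, 3 other scalings, protein-coding genes alone, weights per library, a replicate block and each library left out.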

Additional observations from a re-analysis of the deposited data

Results flagged for a closer look

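Psmc5 and Psmb4 stand out because all 3 treated libraries lay on one side of all 3 controls in the AAV experiment and on the other side in the ribose experiment. Psmc5 had log2(FPKM + 1) differences of 0.223 between AAV-TKT and AAV-GFP and -0.22 between Ribose and Vehicle. Psmb4 had log2(FPKM + 1) differences of 0.255 between AAV-TKT and AAV-GFP and -0.18 between Ribose and Vehicle. The difference between the experiments was not tested, and neither gene passed the threshold in limma in either experiment.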

How the results depend on the processing

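The count of subunits past the threshold in limma was 0 of those tested under all alternatives in both experiments, with lowest adjusted p values of 0.133 (weights per library) between AAV-TKT and AAV-GFP and 0.684 (replicate block) between Ribose and Vehicle. The median log2 difference of the subunits kept its sign in all of them: between AAV-TKT and AAV-GFP it was 0.0552 to 0.126 over the other settings and 0.0734 (without AAV-TKT replicate 2) to 0.176 (without AAV-TKT replicate 1) with a library left out. Between Ribose and Vehicle it was -0.102 to -0.0486 over the other settings and -0.129 (without Ribose replicate 2) to -0.0488 (without Vehicle replicate 3) with a library left out. With equal FPKM totals, median-of-ratios scaling and quantile normalization, 23, 31 and 26 of the 37 subunits were positive between AAV-TKT and AAV-GFP, and 6, 5 and 11 between Ribose and Vehicle. At an unadjusted p under 0.05, the count of subunits higher in AAV-TKT libraries ran between 1 (equal FPKM totals, where 304 of 13177 genes were higher, and without AAV-GFP replicate 3, where 462 of 13051 were) and 8 (without AAV-TKT replicate 1, where 654 of 13127 genes were higher). Between AAV-TKT and AAV-GFP the alpha ring median, 0.07 as reported, was -0.00305 with equal FPKM totals, -0.0107 under quantile normalization and -0.0229 without AAV-TKT replicate 2. Of 128 class medians, 123 moved by less than the spread between replicates. The exceptions were the alpha ring without AAV-TKT replicate 1 at 0.175, and in the ribose experiment the alpha ring at -0.0263 and the ATPase ring at -0.0224 under quantile normalization, the alpha ring without Ribose replicate 2 at -0.156 and the ATPase ring without Vehicle replicate 3 at -0.0251. The cause was not tested. Same-numbered libraries did not deviate together in every pair (correlations of 0.0326, 0.0707 and -0.0144 in the AAV experiment and 0.0418, 0.357 and 0.160 in the ribose experiment), and not every sample correlated best with its own number. With the replicate number as a block, 0 subunits passed in limma in either experiment, the medians stayed at 0.12 and -0.10, and at an unadjusted p under 0.05 the block gave 4 subunits higher in AAV-TKT libraries, beside 872 of 13178 genes, and 2 lower in Ribose libraries, beside 503 of 13804 genes (275 without the block). With 3 libraries a group and unknown depth, the absence of a call does not show that a subunit was unaltered.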
